A study of Homo sapiens with 6 samples.

Results

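The 10 genes described here encode transcription factors of blood stem and progenitor cells and of the megakaryocyte, myeloid and lymphoid lineages, namely GATA2, RUNX1, FLI1, ERG, MEIS1, SPI1, HHEX, LYL1, ETV6 and IKZF1. They were chosen by name, with earlier results of these data known, from the 62252 genes summed in the series, and they are set beside the factors and markers of the erythroid lineage. K562 is a human chronic myeloid leukemia line with erythroid and megakaryocytic features. All 6 libraries of polyA RNA came from K562 cells carrying Flag-PCBP1 under a tet-inducible promoter at the AAVS1 locus, exchanged into 1 parental clone, with polyclonal lines kept under puromycin. The 3 −Dox libraries (labelled Control) received no doxycycline and the 3 +Dox libraries (labelled PCBP1 OE) were treated with it. The groups thus differ in doxycycline as well as in PCBP1, and the dose and time of doxycycline for these libraries are not given in the sources used here. The estimated counts totalled 84177316, 80104627 and 74766040 in −Dox replicates 1, 2 and 3 and 70905656, 82263502 and 82449808 in +Dox replicates 1, 2 and 3. PCBP1 mRNA, which encodes a poly C-binding protein, rose 3.83-fold, from 261.3 ± 12.0 to 1001 ± 56.2 CPM (counts scaled to library size, TMM-normalized; SD, n = 3 per group; adjusted p = 5.22e-10 by edgeR).

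Red cells and platelets come from a shared progenitor, and a small set of transcription factors keeps that progenitor undecided or moves it to one side. GATA2 and RUNX1 act in stem and progenitor cells, and GATA2 gives way to its relative GATA1 on the same DNA sites as red cells mature, the so-called GATA switch. FLI1 and ERG are ETS factors of megakaryocytes and stem cells, FLI1 is known as an antagonist of the erythroid factor KLF1, and SPI1 (PU.1) drives myeloid fate and opposes GATA1. LYL1 is a close relative of the erythroid factor TAL1, MEIS1 is a homeodomain cofactor of HOX proteins, HHEX is a homeobox repressor of early blood and endothelium, ETV6 is an ETS repressor that stem cells need, and IKZF1 (Ikaros) is a zinc-finger factor known above all from lymphocytes.

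Of the 10 factors, 8 had a mean count above 10 and were tested. GATA2, HHEX, RUNX1 and ETV6 were lower in +Dox at an adjusted p under 0.05 by edgeR's quasi-likelihood test with Benjamini-Hochberg adjustment over 21045 genes, on the count scale each by about the same amount. Their log2 fold changes (log2FC, +Dox over −Dox) were −0.36, −0.34, −0.36 and −0.35, which are decreases of 22.0%, 20.9%, 22.0% and 21.7% in mean CPM. With an offset for the average transcript length they were spread more widely, at −0.29, −0.34, −0.65 and −0.40. MEIS1, SPI1, IKZF1 and LYL1 also had negative log2FC values, between −0.23 and −0.10, but did not pass the test. None of the 8 was higher, and none passed the fold limit of the study (an absolute log2FC above 1), which 1.46% of all genes tested did. Over all genes tested, 7.68% were lower at an adjusted p under 0.05 and 8.16% were higher. Among the 10746 genes with a mean of at least 5 CPM, a range that holds all 8 tested factors, 12.9% were lower, against 4 of the 8 factors (50%). All 8 passed the count filter in each group, so none entered the test through 1 group alone. The labels do not say whether the replicates were separate cultures, so these p-values measure the spread between these samples. In bulk RNA, fewer cells that express a gene and less RNA per cell cannot be told apart.

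**Figure D1:**
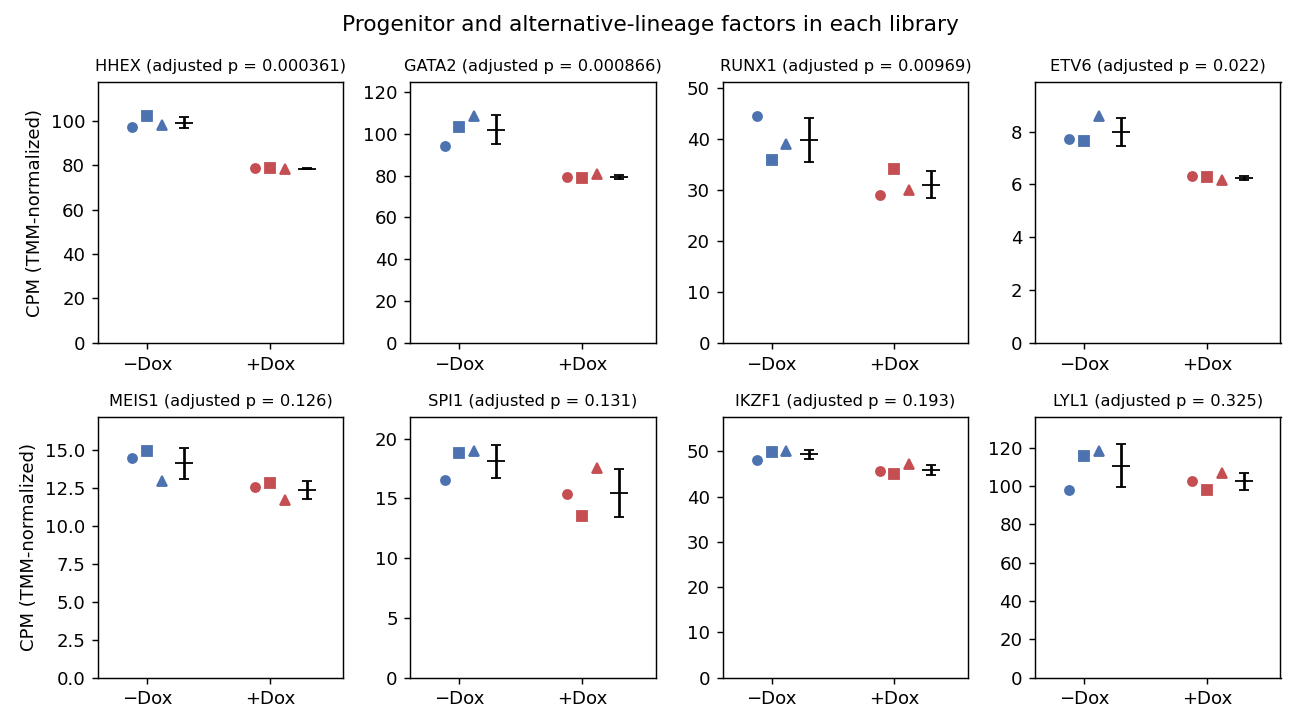
TMM-normalized CPM of the 8 tested factors in each library (circle, square and triangle are replicates 1, 2 and 3; −Dox in blue, +Dox in red), with the mean and SD (n = 3) in black and each axis starting at 0. For HHEX, GATA2, RUNX1, ETV6, MEIS1 and IKZF1 every +Dox point lies below every −Dox point, while SPI1 and LYL1 overlap.

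The sequences below are the 250 bases before the RefSeq start sites of the 4 genes that fell, with both start regions of GATA2 because the 2 regions are compared further on. The build is GRCh38.p14, none of the 5 windows overlaps an annotated exon, and each is written 5′ to 3′ on the strand of its gene. Capitals mark the CG dinucleotides.
GATA2, upstream start, chr3:128493202-128493451, minus strand: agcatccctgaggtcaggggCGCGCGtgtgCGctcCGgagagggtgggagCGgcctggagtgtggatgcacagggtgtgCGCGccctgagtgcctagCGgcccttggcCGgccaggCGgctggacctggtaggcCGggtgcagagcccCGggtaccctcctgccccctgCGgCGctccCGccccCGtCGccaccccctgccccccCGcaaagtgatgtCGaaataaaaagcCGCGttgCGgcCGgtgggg
GATA2, downstream start, chr3:128488531-128488780, minus strand: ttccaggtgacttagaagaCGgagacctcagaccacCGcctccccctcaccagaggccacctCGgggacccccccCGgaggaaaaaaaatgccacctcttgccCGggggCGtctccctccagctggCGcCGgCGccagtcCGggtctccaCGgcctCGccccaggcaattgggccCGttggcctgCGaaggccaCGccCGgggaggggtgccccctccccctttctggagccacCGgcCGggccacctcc
HHEX, chr10:92689705-92689954, plus strand: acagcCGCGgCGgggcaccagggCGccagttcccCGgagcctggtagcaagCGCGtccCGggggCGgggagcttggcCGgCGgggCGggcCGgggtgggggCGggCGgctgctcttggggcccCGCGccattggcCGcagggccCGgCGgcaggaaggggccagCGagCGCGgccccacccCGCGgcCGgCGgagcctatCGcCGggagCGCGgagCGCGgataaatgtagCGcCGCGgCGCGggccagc
RUNX1, chr21:34888700-34888949, minus strand: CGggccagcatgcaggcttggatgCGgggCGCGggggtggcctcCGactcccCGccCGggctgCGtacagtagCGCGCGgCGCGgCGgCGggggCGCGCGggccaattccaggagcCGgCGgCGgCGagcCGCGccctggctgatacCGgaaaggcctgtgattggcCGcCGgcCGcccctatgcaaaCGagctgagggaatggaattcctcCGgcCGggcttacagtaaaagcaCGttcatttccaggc
ETV6, chr12:11649424-11649673, plus strand: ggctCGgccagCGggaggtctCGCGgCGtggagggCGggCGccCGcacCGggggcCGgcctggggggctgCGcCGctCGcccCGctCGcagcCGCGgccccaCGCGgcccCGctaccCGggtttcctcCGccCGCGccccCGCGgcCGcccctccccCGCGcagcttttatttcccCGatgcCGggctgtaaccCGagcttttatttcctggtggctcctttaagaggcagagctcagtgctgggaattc

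The windows hold 24 CG dinucleotides at the upstream start of GATA2, 18 at its downstream start, 38 at HHEX, 32 at RUNX1 and 32 at ETV6, where the median over all 35116 RefSeq promoter windows is 11. Fewer CG dinucleotides than in the window of HHEX were found in 96.7% of all windows, fewer than in the windows of RUNX1 and ETV6 in 90.5%, and fewer than in the upstream and downstream windows of GATA2 in 76.3% and 63.2%. The share of G and C was 72.8% and 71.2% at the GATA2 starts, 81.2% at HHEX, 71.2% at RUNX1 and 74.4% at ETV6, against a median of 58.0%. Each window was extended by 50 bases past the start and searched on both strands for the GATA motif (AGATAA and AGATAG, as well as TGATAA and TGATAG), the RUNX motif (TGTGGT), the ETS motif (CCGGAAG and GAGGAAG) and the E-box (CAGCTG and CAGATG). The only match in the 5 windows was an E-box at the downstream start of GATA2, although at least 1 match is held by 25.0%, 13.1%, 22.5% and 29.8% of all windows for the 4 motifs in that order. RefSeq gave 14 windows for 8 of the 10 factors, and 4, 2, 2 and 3 of these 14 held a GATA, RUNX, ETS and E-box match. A match or its absence describes the letters of a window.

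On the TPM scale (transcript abundance scaled for length as well as library size, so that genes can be compared), the factors covered a wide range. LYL1 stood highest, at 79.6 ± 4.86 TPM in −Dox and 72.9 ± 2.12 TPM in +Dox (SD, n = 3). HHEX followed at 72.5 and 55.9 TPM and GATA2 at 46.3 and 37.1 TPM. IKZF1 at 14.8 and 13.4 TPM and SPI1 at 15.2 and 12.8 TPM overlapped each other in both groups. Below them came RUNX1 at 12.2 and 7.60 TPM, MEIS1 at 4.69 and 3.77 TPM and ETV6 at 1.31 and 0.971 TPM. ERG and FLI1 were at or next to 0. In −Dox IKZF1 also overlapped RUNX1, since it stood at 13.0 TPM in replicate 3 where RUNX1 reached 13.6 TPM in replicate 1. ERG and FLI1 overlapped at 0, and all other neighbours in the order of each group were apart. The highest factor was thus more than an order of magnitude above the lowest tested one, and the order of mean levels was alike in both groups but for IKZF1 and SPI1, which changed places. Summed over the 10 factors, the level was 245.8, 242.5 and 251.7 TPM in the −Dox libraries and 195.9, 213.2 and 204.4 TPM in the +Dox libraries.

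**Figure D2:**
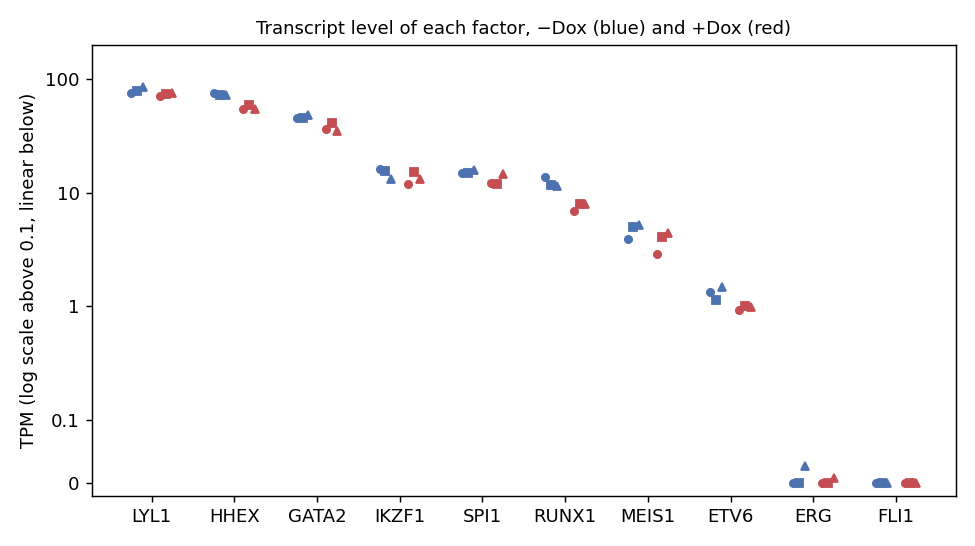
TPM of each of the 10 factors in each library, ordered by mean level (−Dox in blue, +Dox in red, log scale above 0.1 TPM and linear below). LYL1, HHEX and GATA2 lie above 30 TPM in every library, and ERG and FLI1 lie at or next to 0.

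GATA2 (ENSG00000179348.13, chr3:128479427-128493201, minus strand) was measured at 94.4, 103 and 108 CPM in −Dox replicates 1, 2 and 3 and at 79.3, 78.7 and 80.6 CPM in +Dox replicates 1, 2 and 3. The +Dox libraries lay close together and below all −Dox libraries. The mean fell from 102.0 ± 7.09 to 79.5 ± 0.933 CPM (SD, n = 3), with a log2FC of −0.36 (standard error, SE, 0.055, edgeR adjusted p = 8.66e-04). It was called under each of 13 alternative settings. GATA1, its counterpart in the GATA switch, was measured at 157, 168 and 168 CPM in −Dox and at 179.8, 173 and 183 CPM in +Dox. The GATA1 libraries did not overlap either, but its log2FC of 0.12 did not pass the test (SE 0.047, edgeR adjusted p = 0.113). The ratio of GATA1 to GATA2 TPM, a measure chosen after the values of both genes were seen, was 2.71, 2.68 and 2.65 in −Dox and 3.56, 3.26 and 3.74 in +Dox. Its mean was 2.68 ± 0.030 and 3.52 ± 0.242 (SD, n = 3). The TPM values of both genes were apart between the groups, in opposite directions, so the ratio could not overlap either and was not tested. The antisense gene GATA2-AS1 covers 1.59% of the exon bases of GATA2 and went from 19.8 CPM without to 21.9 CPM with Dox (log2FC 0.15, edgeR adjusted p = 0.185).

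RUNX1 (ENSG00000159216.19, chr21:34787801-36004667, minus strand), the DNA-binding partner of CBFB, was measured at 44.5, 35.9 and 39.2 CPM in −Dox and at 29.1, 34.1 and 30.1 CPM in +Dox. The groups did not overlap, but −Dox replicate 2 and +Dox replicate 2 came within 2 CPM of each other. The mean fell from 39.9 ± 4.34 to 31.1 ± 2.65 CPM (SD, n = 3), with a log2FC of −0.36 (SE 0.082, edgeR adjusted p = 0.00969). Without +Dox replicate 3 the log2FC was −0.33 and the call was lost (edgeR adjusted p = 0.0556). On the TPM scale the difference was larger, with a ratio of 0.621 in place of the CPM ratio of 0.780. With an offset for the average transcript length the log2FC was −0.65 (edgeR adjusted p = 0.00136).

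HHEX (ENSG00000152804.11, chr10:92689955-92695647, plus strand) had the smallest p among the 10 factors and ranked number 350 of the 21045 genes tested. It was measured at 97.1, 102 and 98.1 CPM in −Dox and at 78.5, 78.5 and 78.1 CPM in +Dox. All +Dox libraries were below all −Dox libraries, and the spread within each group was small against the gap. The mean fell from 99.1 ± 2.55 to 78.4 ± 0.232 CPM (SD, n = 3), with a log2FC of −0.34 (SE 0.046, edgeR adjusted p = 3.61e-04), and the call was kept under all 13 alternative settings. The 3 genes whose log2 CPM over the 6 libraries was most like that of HHEX were POLR1C (Pearson r = 0.999), MAK16 (r = 0.998) and SLC25A32 (r = 0.998). Over 6 libraries in 2 groups high values of r are common, and 564 of the 14330 genes compared had an r above 0.95. Of these 3 genes, POLR1C encodes a subunit of RNA polymerases I and III, MAK16 a factor of ribosome assembly and SLC25A32 a mitochondrial folate carrier.

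ETV6 (ENSG00000139083.11, chr12:11649674-11895377, plus strand) was the lowest of the tested factors. It was measured at 7.73, 7.65 and 8.58 CPM in −Dox and at 6.31, 6.28 and 6.16 CPM in +Dox. The groups did not overlap, and −Dox replicate 3 stood above the other −Dox libraries. The mean fell from 7.99 ± 0.515 to 6.25 ± 0.081 CPM (SD, n = 3), with a log2FC of −0.35 (SE 0.094, edgeR adjusted p = 0.0220). The call was lost under 6 of the 13 alternatives, with adjusted p values of up to 0.0867 by edgeR. These 6 were the transcript length offset, the replicate number as a block, and leaving out −Dox replicate 3 or any of the +Dox replicates.

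MEIS1 (chr2:66433452-66573869, plus strand) was measured at 14.5, 14.9 and 13.0 CPM in −Dox and at 12.5, 12.9 and 11.7 CPM in +Dox. IKZF1 (chr7:50304068-50405101, plus strand) was measured at 48.2, 49.9 and 50.1 CPM in −Dox and at 45.6, 45.1 and 47.1 CPM in +Dox. For both genes every +Dox library was below every −Dox library, but by little, and neither passed the test. The log2FC was −0.19 for MEIS1 (SE 0.079, edgeR adjusted p = 0.126) and −0.10 for IKZF1 (SE 0.050, edgeR adjusted p = 0.193). With these, 6 of the 8 tested factors were lower in +Dox without overlap between the groups, a pattern that 15.8% of all genes tested had. Neither MEIS1 nor IKZF1 was called under any of the 13 alternatives. The exons of the antisense gene MEIS1-AS2 cover 13.1% of the exon bases of MEIS1, and MEIS1-AS2 had between 0 and 12 counts in a library.

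SPI1 (chr11:47354860-47378547, minus strand) was measured at 16.5, 18.8 and 19.0 CPM in −Dox and at 15.4, 13.5 and 17.5 CPM in +Dox. LYL1 (chr19:13099033-13103161, minus strand) was measured at 97.6, 116 and 118 CPM in −Dox and at 102.5, 97.7 and 107 CPM in +Dox. In both genes the groups overlapped, for SPI1 through the highest +Dox library, replicate 3, and for LYL1 through the lowest −Dox library, replicate 1. The log2FC was −0.23 for SPI1 (SE 0.094, edgeR adjusted p = 0.131) and −0.11 for LYL1 (SE 0.068, edgeR adjusted p = 0.325). Without +Dox replicate 3, SPI1 had a log2FC of −0.33 and an adjusted p of 0.0450 by edgeR, and without +Dox replicate 2 it had −0.14 and 0.394. With genes of any count tested, SPI1 was also called (log2FC −0.23, edgeR adjusted p = 0.0360). Without −Dox replicate 1, LYL1 had a log2FC of −0.19 and an adjusted p of 0.0217 by edgeR, and without −Dox replicate 3 it had −0.06 and 0.682.

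The ETS factors FLI1 and ERG, both known for megakaryocytes and stem cells, were next to undetectable. FLI1 (chr11:128686535-128813267, plus strand) had 0 counts in all 6 libraries. ERG (chr21:38380027-38661780, minus strand) had 0, 0 and 3 counts in −Dox and 0, 0 and 1 counts in +Dox. A count of 0 allows a level of up to 3 counts, which is 0.0356 to 0.0423 CPM in these libraries and covers counting error only. No fold change is given for either gene. The label of the set thus holds for 8 factors that K562 cells express and for 2 that were not detectable, or nearly so, at this depth.

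Most of these genes have several annotated forms, and the decreases were also looked for in the single forms. The 10 factors have 111 annotated transcripts, of which 53 had a mean count above 10. None of the 53 passed an adjusted p of 0.05 by edgeR over the 86178 transcripts tested, where 0.204% of all did. At an unadjusted p under 0.05 there were 12 of the 53, 11 of them lower in +Dox, where 10% of all transcripts tested passed and 4.75% were lower. Salmon divides the reads of a gene among its forms by estimation, and the error of that step is not part of these tests.

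For GATA2, the form from the upstream start, GATA2-201, had 3457, 3563 and 3762 counts in −Dox and 2403, 2471 and 2504 counts in +Dox. Its log2FC was −0.52 (edgeR adjusted p = 0.156 over all transcripts). The form from the downstream start, GATA2-203, had 1399, 1547 and 1383 counts in −Dox and 1036, 1428 and 1373 counts in +Dox, with a log2FC of −0.15 (edgeR adjusted p = 0.725), which ran from −0.22 without −Dox replicate 1 to −0.09 without +Dox replicate 1. The counts of GATA2-201 did not overlap between the groups, and those of GATA2-203 did. The 5 forms that start upstream, at 128493173 to 128493201, together held 31.6%, 32.7% and 34.6% of the TPM of GATA2 in −Dox and 28.5%, 26.5% and 30.7% in +Dox. Their mean share was 33.0% ± 1.54 in −Dox and 28.6% ± 2.09 in +Dox (SD, n = 3; p = 0.1 by an exact permutation test, two-sided, the smallest possible). The forms that start at 128487916 to 128489034 held 28.5% ± 2.01 and 28.0% ± 3.60, which overlapped. A further 35.5% ± 2.28 and 37.2% ± 2.35 lay on GATA2-204, a retained intron form, and GATA2-213, which start inside the gene, and the rest on the minor forms GATA2-205 and GATA2-212.

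For RUNX1, the main forms were RUNX1-202 and RUNX1-203, which share the start at 34888690 and had log2FC values of −0.33 and −0.30 (edgeR adjusted p = 0.474 and 0.753 over all transcripts). That of RUNX1-203 ran from −0.49 without −Dox replicate 2 to −0.14 without −Dox replicate 1. Both forms together held 56.5%, 45.1% and 56.7% of the TPM of RUNX1 in −Dox and 63.9%, 72.7% and 59.4% in +Dox. The mean share was 52.8% ± 6.64 in −Dox and 65.3% ± 6.77 in +Dox (SD, n = 3; p = 0.1 by an exact permutation test, two-sided). RUNX1-204, which starts at 34889790, held 9.51% ± 3.03 and 3.86% ± 2.94 (exact permutation test, two-sided, p = 0.1), from 81, 66 and 33 counts in −Dox and 17, 2 and 25 counts in +Dox. Of the 17 start regions tested in 5 factors, those 2 of RUNX1 and the upstream one of GATA2 were the 3 without overlap, a pattern that 11.6% of the 21208 start regions of all genes tested had. The share of the main start of RUNX1 differed by 12.5 percentage points on TPM but by 0.556 points when estimated counts were used in place of TPM. RUNX1-205, which starts at 34887183, had the smallest p of the forms of RUNX1, with 74, 86 and 87 counts in −Dox and 26, 19 and 30 counts in +Dox. Its groups were apart, but its log2FC of −1.68 did not pass the test (edgeR adjusted p = 0.193 over all transcripts), and it held 5.71% and 2.77% of the TPM of RUNX1. RUNX1-208, from a start further upstream, had 16, 22 and 19 counts without and 5, 2 and 8 counts with Dox (log2FC −1.86, edgeR adjusted p = 0.498), and the retained intron form RUNX1-213 had a log2FC of 0.09 (edgeR adjusted p = 0.978). RUNX1-210 was credited with 0 to 5 counts per library and yet with up to 14.7% of the TPM of RUNX1.

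**Figure D3:**
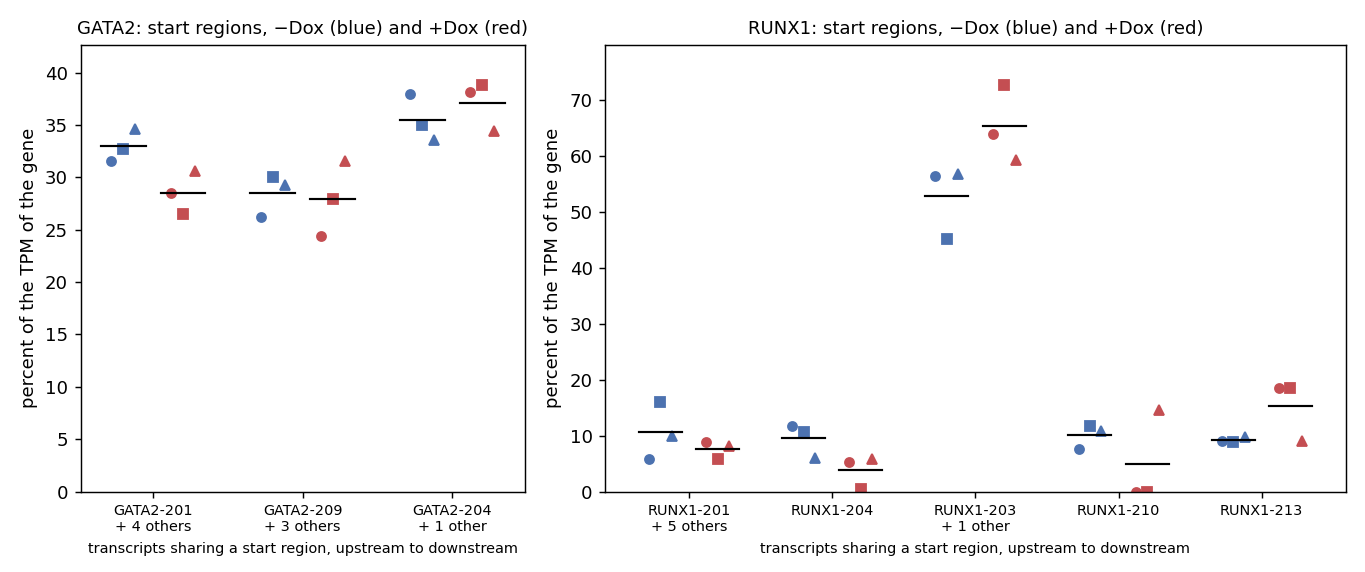
Share of the TPM of GATA2 (left) and RUNX1 (right) on the annotated transcripts of each start region, in percent, for each library (−Dox in blue, +Dox in red, with the mean of 3 as a black line). The upstream region of GATA2 is lower in +Dox without overlap, the region of RUNX1-203 is higher and that of RUNX1-204 lower.

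In HHEX, LYL1 and ETV6 1 form carried most of the gene, while SPI1, IKZF1 and MEIS1 were spread over several forms. HHEX-201 held 73.8% of the TPM of HHEX in −Dox and 74.3% in +Dox, and its log2FC was −0.30 (edgeR adjusted p = 0.0846 over all transcripts). HHEX-203 and the retained intron form HHEX-204 had log2FC values of −0.37 and −0.35 (edgeR adjusted p = 0.413 and 0.390). LYL1-201 held 89.0% and 89.1%, beside the retained intron form LYL1-202 at 7.48% and 7.06%. ETV6-202 held 93.1% and 95.7%, and ETV6-205 the next largest share from 0 to 5 counts per library. The few reads of ERG were all credited to ERG-210. SPI1-202 held 55.7% and 55.4% of SPI1, beside SPI1-201 at 27.6% and 31.6% and SPI1-204 at 15.2% and 11.0%. IKZF1-201 was the largest form of IKZF1, with 24.4% and 24.9%. IKZF1-222 (17.7% and 19.0%) and IKZF1-217 (17.96% and 13.28%) followed, and IKZF1-203, IKZF1-215, IKZF1-216 and IKZF1-219 held 2.29% to 7.92% in either group. In MEIS1 no form passed 40% in any library, and its 4 start regions overlapped between the groups. Its largest forms in −Dox were MEIS1-209 (a mean of 23.4% and 27.2%), MEIS1-203 (21.6% ± 3.58 and 12.7% ± 12.6) and MEIS1-201 (16.7% ± 4.51 and 22.6% ± 14.5; SD, n = 3). The +Dox means of the last 2 rest on replicate 1, where MEIS1-201 held 39.3% (14.7% and 13.8% in replicates 2 and 3) and MEIS1-203 was at 0. Of the other forms, MEIS1-210, MEIS1-212 and MEIS1-216 held 3.16% to 15.7%, and in +Dox the mean of MEIS1-210 (15.7%) was above that of MEIS1-203. MEIS1-202 had 204, 68 and 60 counts in −Dox and 20, 30 and 7 counts in +Dox, which were apart, but its log2FC of −2.46 did not pass the test (edgeR adjusted p = 0.345). The test of shares within a gene called 2 of 52 forms of the factors at an adjusted p under 0.05 by edgeR (diffSpliceDGE), against 0.709% of the 77705 forms tested. Both calls rest on counts that appear in some libraries only. GATA2-212 had 0, 0 and 0 counts in −Dox and 78, 71 and 0 in +Dox, and IKZF1-213 had 0, 0 and 630 counts in −Dox and none in +Dox.

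The erythroid factors, the first group that the set was read against, were spread over both directions. Of 13 such factors, all tested, 4 rose, 2 fell and 7 did not pass the test, where 8.16% of all genes tested rose and 7.68% fell. Their median log2FC was 0.08, where that of the 8 tested factors of the set was −0.28 and that of all genes tested 0.01. TAL1, the bHLH factor at the centre of the erythroid complex, was measured at 56.3, 56.5 and 60.2 CPM in −Dox and at 78.7, 78.2 and 77.9 CPM in +Dox (log2FC 0.44, edgeR adjusted p = 8.34e-05). KLF1, an activator of globin and other red cell genes, was measured at 70.1, 84.2 and 83.0 CPM in −Dox and at 116, 99.9 and 109 CPM in +Dox (log2FC 0.46, edgeR adjusted p = 0.00121). TAL1 and KLF1 were thus higher in every +Dox library, while LYL1, the relative of TAL1, had a negative log2FC that did not pass the test. FOXO3 and KLF3 also rose, with log2FC values of 0.44 and 0.20 (edgeR adjusted p = 0.00257 and 0.0224). LMO2, the bridging protein of the complex of TAL1 and GATA1, fell with a log2FC of −0.20, and its corepressor partner CBFA2T3 (ETO2) fell with one of −0.26 (edgeR adjusted p = 0.0219 and 0.0114). The call of LMO2 was lost with the replicate block and without −Dox replicate 2 or 3 or +Dox replicate 2 or 3 (edgeR adjusted p of up to 0.0996), that of CBFA2T3 without −Dox replicate 3 (0.0574) and that of FOXO3 with the transcript length offset (0.0514). KLF3 lost its call with the offset, with the block and without −Dox replicate 2 or 3 or +Dox replicate 1 or 2 (up to 0.191).

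**Figure D4:**
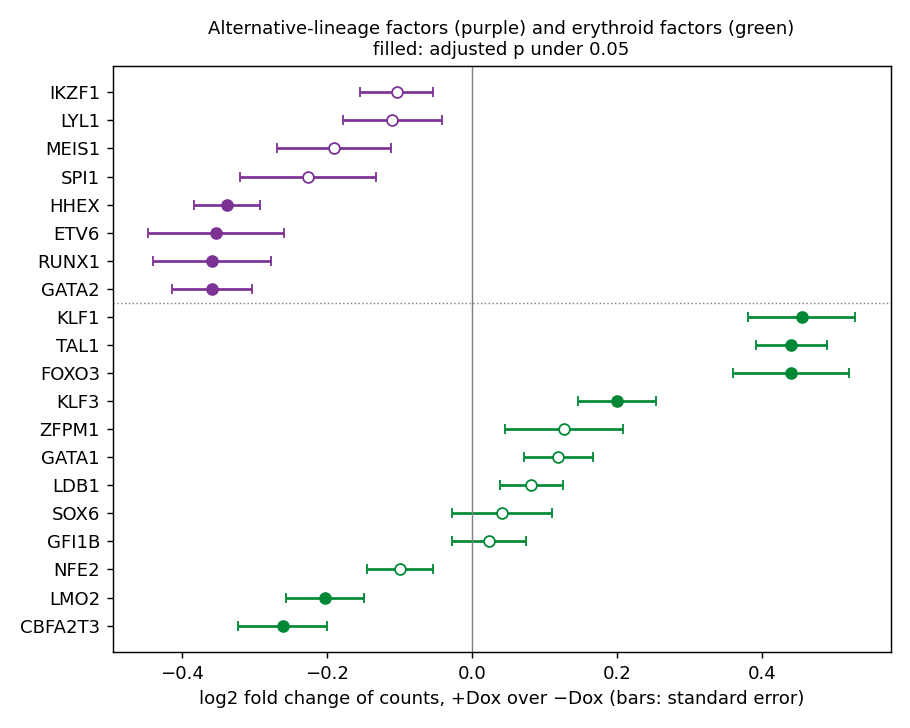
Log2 fold change of counts, +Dox over −Dox, with its SE, for the 8 tested stem and alternative-lineage factors (purple) and for the 12 erythroid factors with a mean of at least 1 CPM in −Dox (green). Filled points have an adjusted p under 0.05. All purple points lie below 0, and the green points run from −0.26 for CBFA2T3 to 0.46 for KLF1. The erythroid factor BCL11A, at 0.452 CPM in −Dox, is not drawn (log2FC −0.33, edgeR adjusted p = 0.645).

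Among 21 erythroid markers, all tested, 13 rose and 2 fell (8.16% and 7.68% of all genes tested) and 6 did not pass the test, with a median log2FC of 0.61. ALAS2, the first enzyme of heme synthesis in red cells, rose from 30.4 ± 1.43 to 87.8 ± 6.08 CPM (SD, n = 3; log2FC 1.53, edgeR adjusted p = 2.51e-08). KEL, a blood group protein, and EPOR, the erythropoietin receptor, rose by log2FC values of 0.93 and 0.97 (edgeR adjusted p = 5.38e-07 and 6.52e-07). The 2 that fell were TFRC, the transferrin receptor, with a log2FC of −0.34, and HBZ, an embryonic globin, with −0.40 (edgeR adjusted p = 8.56e-04 and 0.00213). HBG2, a fetal globin and the most abundant marker, had a log2FC of 0.02 (edgeR adjusted p = 0.899). The other globins, HBA1, HBA2, HBG1 and HBE1, did not pass the test either, at log2FC values of 0.00, −0.22, −0.12 and −0.13. No globin of the list was thus among the markers that rose. The summed TPM of the list was 22910 to 24060 in −Dox and 22910 to 23600 in +Dox, of which HBG2 alone held a mean of 9789 TPM in −Dox.

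Of 15 stem and progenitor markers, 7 were tested, of which 3 fell and none rose (7.68% and 8.16% of all genes tested), and the median log2FC was −0.18. This median was −0.26 and −0.10 without −Dox replicate 2 and 3, and −0.04 and −0.28 without +Dox replicate 1 and 2. MYB, a factor of cycling progenitors, was measured at 258, 245 and 252 CPM in −Dox and at 198, 206 and 213 CPM in +Dox (log2FC −0.29, edgeR adjusted p = 0.00114). EGFL7, a secreted protein of stem cells and endothelium, fell from 96.5 ± 11.9 to 69.4 ± 9.71 CPM (SD, n = 3; log2FC −0.48, edgeR adjusted p = 0.00559). KIT, the stem cell factor receptor, fell with a log2FC of −0.45 (edgeR adjusted p = 0.0420), a call lost with the transcript length offset and without any 1 library other than −Dox replicate 1 (edgeR adjusted p of up to 0.157). BMI1 came next, at a log2FC of 0.07 (edgeR adjusted p = 0.423, and 0.03 to 0.11 with 1 library left out). The stem cell markers were uneven in level. CD34 stood at 2.23 and 2.31 CPM without and with Dox, and FLT3, HOXA10, MYCN, SPINK2 and AVP had 0 counts in every library, while MECOM stood at 52.2 and 55.1 CPM and BMI1 at 144 and 152 CPM. The summed TPM of the list was 263.5, 261.5 and 274.8 in −Dox and 192.9, 219.9 and 224.1 in +Dox.

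Of 18 megakaryocyte markers, 10 were tested, of which 1 rose and 2 fell (8.16% and 7.68% of all genes tested), with a median log2FC of −0.19 (0.00 without +Dox replicate 2, and −0.28 without +Dox replicate 3). RAB27B, which acts in granule secretion, had the largest difference of the 3, falling from 33.5 ± 0.882 to 12.3 ± 1.22 CPM (SD, n = 3; log2FC −1.45, edgeR adjusted p = 1.51e-07). GP6, the collagen receptor of platelets, fell with a log2FC of −0.75 (edgeR adjusted p = 1.86e-04). TUBB1, the tubulin of platelets, went the other way and rose with one of 0.95 (edgeR adjusted p = 4.81e-05). ITGA2B, an integrin that defines the lineage, had a log2FC of 0.21 (edgeR adjusted p = 0.0873), which ran from 0.105 to 0.245 over the 13 alternatives. GP1BB, the most abundant marker, had one of 0.12 (edgeR adjusted p = 0.584), which was −0.048 without −Dox replicate 1. PF4, SELP and TREML1 had 0 counts in every library. The summed TPM of the list was 79.6, 83.3 and 93.8 in −Dox and 81.7, 83.3 and 85.9 in +Dox.

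Of 20 myeloid markers, 10 were tested, of which 2 fell and none rose (7.68% and 8.16% of all genes tested), with a median log2FC of 0.00 (−0.13 without −Dox replicate 2, and −0.25 without +Dox replicate 3). LYZ (lysozyme) was the most abundant and fell from 143.9 ± 25.0 to 104.1 ± 10.3 CPM (SD, n = 3; log2FC −0.47, edgeR adjusted p = 0.00837), and CEBPB, a factor of myeloid genes, fell with a log2FC of −0.30 (edgeR adjusted p = 0.0135), a call lost with the transcript length offset (0.0746). CD33 and ITGAM followed, at log2FC values of −0.14 and 0.35 (edgeR adjusted p = 0.217 and 0.620). The ITGAM value ran from 0.19 without −Dox replicate 2 to 0.74 without −Dox replicate 3, and was −1.13 with the transcript length offset. CTSG had 0 counts in every library, and the summed TPM was 140.1, 149.8 and 176.3 in −Dox and 110.3, 112.7 and 128.3 in +Dox. Of 16 lymphoid markers, 5 were tested, of which 1 rose and none fell (8.16% and 7.68% of all genes tested). The 1 that rose was RAG1, a recombinase, with a log2FC of 0.38 (edgeR adjusted p = 0.0439). Its call was lost under 7 of the 13 alternatives, among them those without −Dox replicate 1 or 2 or +Dox replicate 2 or 3 (edgeR adjusted p of up to 0.601). TCF7, CD79B and CD3D, the most abundant, had log2FC values of 0.14, −0.55 and −0.13 (edgeR adjusted p = 0.491, 0.557 and 0.686). That of TCF7 ran from 0.03 without +Dox replicate 1 to 0.25 without −Dox replicate 3, and was −0.155 with the transcript length offset. The CD79B value ran from −0.74 without +Dox replicate 3 to −0.26 without −Dox replicate 2. With 1 library left out, that of CD3D ran from −0.398 to 0.0838, the latter without +Dox replicate 2. PAX5, MS4A1, BCL11B and DNTT had 0 counts in every library, and the summed TPM was 57.3, 59.8 and 54.9 in −Dox and 48.3, 40.5 and 64.8 in +Dox. The part of other cell types in the differences of the factors was not tested.

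**Figure D5:**
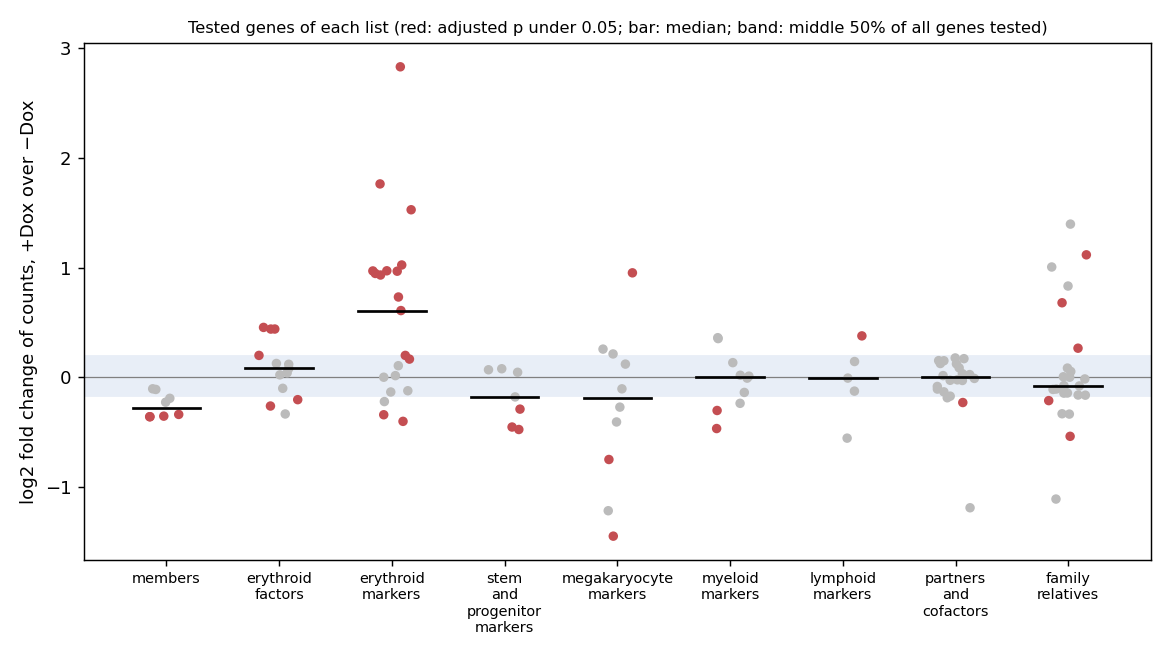
Log2 fold change of counts, +Dox over −Dox, of the tested genes of each list (1 point per gene, red at an adjusted p under 0.05, the black bar is the median), with the middle 50% of all genes tested as a band. The 8 tested members of the set lie below 0 with a median of −0.28, while the erythroid markers have a median of 0.61 and the partners and cofactors one of 0.00.

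For the proteins that the factors work with, only the mRNA was measured. Of 23 partners and cofactors, 22 were tested, 1 fell and none rose, and the median log2FC was 0.00. Of all genes tested, 7.68% fell and 8.16% rose at an adjusted p under 0.05. The 1 that fell was CHD4, the helicase of the NuRD complex, with a log2FC of −0.23 (edgeR adjusted p = 0.00361, and 0.210 with the transcript length offset). PBX2, TCF3 and LMO4 came next, at log2FC values of 0.13, −0.17 and 0.15 (edgeR adjusted p = 0.0640, 0.0742 and 0.0742). TCF3, an E protein partner of LYL1 and TAL1, was called under 5 of the 13 alternatives, such as without −Dox replicate 1 (log2FC −0.23, edgeR adjusted p = 0.00927), and PBX2 with DESeq2 (adjusted p = 0.0411). HDAC2, the most abundant, had a log2FC of 0.02 (edgeR adjusted p = 0.850).

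Among 30 relatives of the factors by family, 25 were tested, 3 rose and 2 fell (8.16% and 7.68% of all genes tested), and the median log2FC was −0.08. The number that fell ranged from 0 to 5 over the alternatives, the 5 with DESeq2, and the number that rose from 1 to 3. FEV, TAL2 and ETV1 rose with log2FC values of 0.68, 1.12 and 0.27 (edgeR adjusted p = 0.00675, 0.0129 and 0.0318). ELK1 and IKZF2 fell with log2FC values of −0.21 and −0.54 (edgeR adjusted p = 0.0318 and 0.0472). Most of these calls were not stable. ELK1 lost its call without any 1 library other than −Dox replicate 1, ETV1 without replicate 2 or 3 of either group, IKZF2 without any 1 library other than −Dox replicate 3, and TAL2 without −Dox replicate 3 or +Dox replicate 2, with edgeR adjusted p values of up to 0.130, 0.759, 0.446 and 0.0578 over all alternatives. The calls of ELK1, ETV1 and IKZF2 were also lost with the transcript length offset, where the log2FC was 0.10 for ETV1 and −0.35 for IKZF2, those of ETV1 and IKZF2 with the replicate block and that of IKZF2 with a summed count above 10. IKZF2 (Helios) is a relative of IKZF1 and TAL2 one of LYL1, 2 factors that did not pass the test. ELF1, the most abundant relative, had a log2FC of −0.14 (edgeR adjusted p = 0.0950) and was called with DESeq2 (adjusted p = 0.0416).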

How the data were processed

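Paired-end reads (150 cycles) of 6 polyA libraries were quantified by the authors with Salmon 1.10.2 (build hg38 per the labels). For each transcript the authors deposited an estimated count, which is not scaled, and a TPM value, which Salmon scales for effective length. Replicates were not pooled. The index, annotation and strand setting are not given in the sources used here, so counts of genes that overlap on opposite strands are uncertain. Of 252045 transcripts, 251612 matched GENCODE 44 on GRCh38 and 433 did not. Estimated counts were summed over 62252 genes and rounded, and edgeR 4.0.16 was run on the 21045 genes whose mean count exceeded 10 (TMM, glmQLFit and glmQLFTest, two-sided, Benjamini-Hochberg adjustment) in R 4.3.3. The study used DESeq2. The SE of a log2 fold change was taken as its size over the root of the F statistic. Depth was 70905656 to 84177316 counts per library.

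Transcripts were tested in the same way, shares within a gene with diffSpliceDGE, and shares of start regions (5′ ends within 1000 bases of the next, with 5% to 95% of the TPM) with exact permutation tests. Starts are those of GENCODE 44, and promoter windows are from RefSeq. The genes named are the 10 factors, PCBP1, overlapping antisense genes, forms with at least 5% of the TPM of a gene, the 4 genes of each list with the smallest p and the most abundant one, and the 3 genes most like the factor with the smallest p. Genes of a list named beside these were chosen after their values were seen. The members and lists were chosen with earlier results of these data known. The alternatives were DESeq2 1.42.0, RLE size factors, other count filters, a transcript length offset, the replicate number as a block and each library left out in turn. On simulated data with 200 genes changed by 1.5 on the log2 scale, edgeR called 199 of them and 5 unchanged genes of 21045. For transcripts it called 192 of 200 and 4 unchanged of 86178. Calls of these genes and transcripts needed both the adjusted p and the fold limit. For shares, at the adjusted p alone, it called 162 of 189 and 19 unchanged of 77705. Changes as small as those of the factors, and gene calls at any fold, were not checked in this way. Figures were drawn with matplotlib 3.10.9. Proteins were not compared here. Not every erythroid marker under the rule for named genes is reported here.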

Additional observations from a re-analysis of the deposited data

How the results depend on the processing

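The decreases of GATA2 and HHEX were called under all 13 alternatives, and the log2 fold changes of all 8 tested factors stayed negative under all 13. Between 3 and 5 factors were called. RUNX1, ETV6, SPI1 and LYL1 changed sides of the threshold under the settings given above, and the cause was not tested. Over all genes, 515 in place of 308 passed both limits when genes of any count were tested, and 1883 in place of 3333 passed the adjusted p with the transcript length offset. With 1 library left out at a time, 231 to 313 genes passed both limits and 2267 to 3313 the adjusted p. Forms called for their share then ranged from 0 to 2, and start regions without overlap from 3 to 8, the 8 without +Dox replicate 3. With a summed count above 10, 3 forms were called for their share. With a distance of 100 bases in place of 1000, 5 of 25 start regions did not overlap, and with estimated counts 2 of 14. Of the genes named here, none that passed the test turned its sign. No form of the factors passed the test of levels, and the signs of the 2 forms called for their share were not followed. With the transcript length offset the log2 fold change was −0.0086 for HDAC2, −1.13 for ITGAM and −0.16 for TCF7. Over the libraries left out, it ran from −0.0109 to 0.0398 for HDAC2, from −0.398 to 0.0838 for CD3D, from −0.048 to 0.236 for GP1BB, from −0.0234 to 0.0681 for HBG2, from −0.0806 to 0.187 for GATA2-213 and from −0.0836 to 0.331 for RUNX1-213. Over the libraries left out, the median of the stem and progenitor list ran from −0.28 to −0.04, that of the megakaryocyte list from −0.28 to 0.00 and that of the myeloid list from −0.25 to 0.04. The first was −0.09 with the transcript length offset, and the second 0.00 where a gene needed 10 counts in each of the 6 libraries. With the replicate number as a block, 298 genes passed both limits, 2490 the adjusted p, 3 of the factors were called and 1 form for its share. The numbers pair no libraries by this check, since deviations of same-numbered libraries correlated at 0.00, −0.21 and −0.02 and not every library correlated best with its own number. Of 773 alternative values of the log2 fold change of single genes and forms, 692 kept their direction and side, 57 lost and 10 gained a call and 14 reversed. Of 489 alternative values without a test, which are counts and medians of lists and shares of start regions, 49 moved by over 1.5 times (counts) or by more than the spread between replicates, and 36 turned their sign. Depth limits FLI1 and ERG, for which no difference could be measured.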
